A study of Mus musculus with 12 samples.

Results

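The BCL2 family apoptosis regulators examined here were 10 genes, chosen by symbol from the 24824 genes of the deposited expression table. They were the pro-survival genes Bcl2, Bcl2l1 and Mcl1, the effectors Bax and Bak1, and the BH3-only genes Bid, Bcl2l11, Bbc3, Pmaip1 and Bad. All 10 were listed and all 10 passed the filter of a mean FPKM of at least 1 over the libraries (FPKM, fragments scaled by gene length and by the library's depth), which left 10615 genes for testing.

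Proteins of this family decide whether the outer membrane of the mitochondrion stays intact. BAX and BAK oligomerise and open the membrane, pro-survival members such as BCL2, BCL-XL (from Bcl2l1) and MCL1 hold them and the BH3-only proteins in check, and BH3-only proteins carry stress signals to both. In hepatocytes BCL-XL and MCL1 are the main guards, and loss of either in mouse liver leads to hepatocyte apoptosis. Several of these proteins are also controlled after transcription, by phosphorylation of BAD, cleavage of BID or rapid turnover of MCL1, which RNA levels do not show.

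AML12, an immortalized line of mouse hepatocytes, was profiled as wild-type cells in 4 groups of 3 libraries. Group A was grown in standard medium with nothing added. Group B received 300 μM CuCl2 and 40 nM elesclomol, an ionophore that carries copper into cells (Cu/ES). Group C received the same Cu/ES and 1000 μM taurocholic acid (TCA), a conjugated bile acid, and group D was given 1000 μM TCA alone. All cells were harvested after 24 h of treatment. The comparisons ask how copper overload changes the transcriptome (B vs. A), what TCA adds to it (C vs. B) and what TCA does without it (D vs. A). Comparisons B vs. A and D vs. A share the libraries of group A, and B vs. A and C vs. B share those of group B. Nothing in the labels says whether libraries of a group came from separate cultures, so p-values measure the spread between these libraries, which may be technical.

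Polyadenylated RNA was sequenced, and the spacing of the FPKM values gave back whole reads, with totals of 38290273 to 39099637 reads in group A, 30771090 to 31999051 in B, 29112016 to 34908553 in C and 39434360 to 39772245 in D. These bulk values cannot tell fewer cells of a type from less RNA per cell. The defining hepatocyte markers were near absent: Alb was listed at 0 in groups A, C and D and reached at most 0.0758 FPKM in B, and Hnf4a reached at most 0.0304 FPKM in any library. The 6 hepatocyte markers in the table summed to 598 to 651 FPKM in A, 243 to 295 in B, 191 to 228 in C and 701 to 721 in D, nearly all of it from the keratins Krt8 and Krt18, while Apoe went up from 1.58 to 2.01 FPKM in A to 7.47 to 8.60 in B and Apoa1 from at most 0.0259 to 1.18 to 2.44. The 5 stellate cell or fibroblast markers summed to 140.1 to 206 FPKM in A and 121 to 183 in D but to at most 5.73 in B and C. Of these Acta2 went up, from at most 0.0181 FPKM in A to 0.206 to 0.551 in B. The 3 endothelial markers summed to at most 1.25 in A and D against 6.76 to 19.7 in B and C. Most of that rise was Pecam1, from 0.165 to 0.285 FPKM in A to 5.31 to 9.55 in B. Kdr stayed at or under 0.648 FPKM, and Cdh5 overlapped (0.630 to 0.899 in A, 0.642 to 1.11 in B). The 4 cholangiocyte markers summed to 230.5 to 326 FPKM in A and 111 to 139.9 in B, with Krt19 going from 223 to 313 down to 64.1 to 88.7 and Sox9 from 7.44 to 12.3 up to 47.1 to 54.3. Leukocyte markers summed to at most 0.188 FPKM in any library. These markers moved with Cu/ES as the family did, and their part in the results was not tested. The median of all genes tested was also 1.10 lower in B than in A on the log2(FPKM + 1) scale, so each Cu/ES change is given as deposited, relative to that median gene, and after median-ratio scaling, which sets the typical gene of every library to the same level and moved the median to 0.01.

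In group A the family was ordered by length-corrected level as Bax, Bak1, Mcl1, Bcl2l1, Bad, Bid, Bbc3, Bcl2l11, Pmaip1 and Bcl2. The ranges of neighbours in that order did not overlap, apart from Bid with Bbc3 and Bbc3 with Bcl2l11. The effectors held 60.4% ± 0.937 of the summed FPKM of the 10 genes (SD, n = 3), the pro-survival genes 22.7% ± 0.848 and the BH3-only genes 16.9% ± 0.484. With Cu/ES the order became Bax, Mcl1, Bak1, Bcl2l1, Pmaip1, Bbc3, Bcl2l11, Bad, Bid and Bcl2, where Bcl2l11, Bad and Bid lay within one another's spread. Levels between genes rest on the lengths the authors used. The length implied by the spacing was 8727 bases for Mcl1, longer than its whole locus of 4389 bases in GENCODE M21. The annotated exon of Mcl1 there is 3418 bases, so its FPKM would be higher on that length. Changes of a single gene between groups do not depend on this length beyond the pseudocount, but the order of genes, sums over genes and shares of a sum do. With all 10 genes put on their annotated exon lengths, an alternative added after the data were seen, the order in A began with Mcl1 (87.5 FPKM), Bak1 (56.0) and Bax (46.2), and in B with Mcl1 (114), Bax (96.9) and Bak1 (12.6). The effectors then held 42.2% ± 1.34 and the pro-survival genes 42.0% ± 1.17 of the sum in A.

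**Figure D1:**
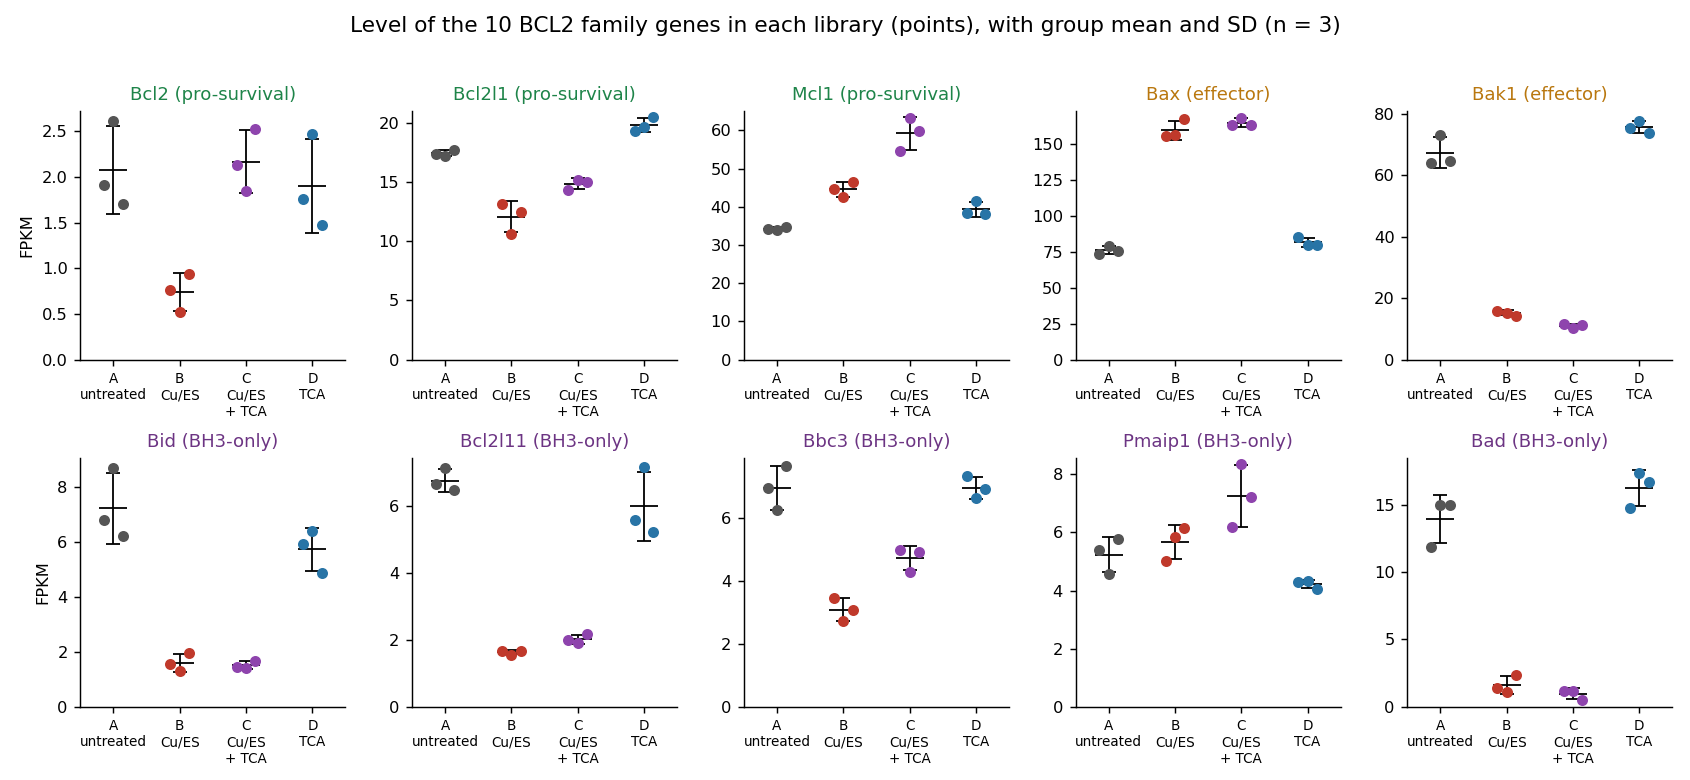
FPKM of the 10 genes in each of the 12 libraries (points, one panel per gene, each axis starting at 0), with the group mean and SD (n = 3). Bax rises from a mean of 76.0 in group A to 159 in group B, while Bak1 goes from 67.3 to 15.2 and Bad from 14.0 to 1.62, and groups A and D lie close together in most panels.

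Cu/ES changed 9 of the 10 genes at an adjusted p under 0.05 (limma, Benjamini-Hochberg over all genes tested), which is close to the 92.1% of all genes tested that passed the same test. 2 rose (background 20.1%) and 7 fell (background 72.0%). Past both thresholds, which also ask for a log2 fold change beyond 1 in size, 1 gene rose (Bax, background 10.1%) and 4 fell (Bak1, Bid, Bcl2l11 and Bad, background 53.0%). This split depends on the scaling. After median-ratio scaling 3 genes rose past both thresholds (Mcl1, Bax and Pmaip1, background 26.9%) and 1 fell (Bad, background 24.6%), and on the TPM scale, which rescales every library to the same sum, none rose (background 7.98%) and 6 fell (background 63.3%). At the adjusted p alone, median-ratio scaling gave 4 of the 10 higher (background 44.0%) and 4 lower (background 43.8%). The median log2 fold change of the 10 genes was -0.89 as deposited and 0.02 after median-ratio scaling. The libraries of groups A and B did not overlap for 9 of the 10 genes, against 92.9% of all genes tested.

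Among the pro-survival genes, Mcl1 encodes a short-lived guard that binds BAK, BIM and NOXA. Mcl1 was at 34.2, 34.0 and 34.6 FPKM in group A and at 44.6, 42.6 and 46.5 in group B. All 3 Cu/ES libraries lay above all 3 untreated ones, on 11426 to 12495 reads per library. The log2 fold change was 0.37 (SE 0.07, limma adjusted p = 1.18e-04), which was 1.47 above the median gene, and 1.67 after median-ratio scaling. It was 0.01 (adjusted p = 0.915) on the TPM scale, so the rise of the level itself depends on the scaling. Of the genes tested, 82.0% had a lower log2 fold change than Mcl1, a rank that was read on the deposited scale.

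Bcl2l1, the source of BCL-XL, fell in FPKM while the typical gene fell further. It was at 17.4, 17.2 and 17.7 FPKM in A and at 13.1, 10.6 and 12.5 in B. No library of B reached the lowest of A, and the log2 fold change was -0.50 (SE 0.08, limma adjusted p = 1.94e-05). Relative to the median gene it was 0.60 higher, and after median-ratio scaling the sign turned to 0.75 (adjusted p = 5.12e-07). Bcl2 itself was the lowest of the 10 genes, at 1.91, 2.62 and 1.70 FPKM in A and 0.760, 0.519 and 0.937 in B, on 122 to 212 reads in the libraries of B. Its groups did not overlap, and the log2 fold change was -0.82 (SE 0.15, limma adjusted p = 8.96e-05). After median-ratio scaling it was -0.09 (adjusted p = 0.565), and with quantile normalization its sign turned to 0.47. At so low a level the pseudocount of 1 shrinks the change. With limma-voom, a fit to the recovered reads, Bcl2 was at -1.51 and the median gene at -1.33. Whether Bcl2 fell further than the typical gene thus depends on the scale.

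The effectors moved apart. Bax, which shuttles between the cytosol and mitochondria and opens the outer membrane once activated, was at 73.3, 78.9 and 75.7 FPKM in A and at 155, 156 and 167 in B. The lowest library of B stood far above the highest of A, and the group means differed 2.10-fold. The log2 fold change was 1.06 (SE 0.06, 95% confidence interval 0.94 to 1.18, limma adjusted p = 2.10e-10). It stood 2.16 above the median gene, was 2.39 after median-ratio scaling, and was larger than that of 90.5% of the genes tested. Bak1, the effector that resides on the mitochondrial outer membrane, went the other way, from 64.0, 73.1 and 64.6 FPKM in A to 15.9, 15.3 and 14.3 in B. Its group means differed 4.43-fold, with no overlap. The log2 fold change was -2.08 (SE 0.07, 95% confidence interval -2.23 to -1.92, limma adjusted p = 1.93e-12), which was 0.98 below the median gene, and -0.78 after median-ratio scaling (adjusted p = 6.04e-08). The directions of Bax and Bak1 and their calls at the adjusted p held in all 15 alternatives fitted for each. Their calls past both thresholds did not. Bax was at 0.69 on the TPM scale and 0.90 with quantile normalization, and Bak1 at -0.78 after median-ratio scaling. Bax rose from 32.0% ± 0.143 to 64.9% ± 0.863 of the summed FPKM of the 10 genes, and Bak1 went from 28.3% ± 1.08 to 6.19% ± 0.549, shares that no scaling of whole libraries changes. On the annotated exon lengths the shares went from 19.1% to 39.3% for Bax and from 23.1% to 5.13% for Bak1.

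Of the BH3-only genes, 4 of 5 fell and none rose on the deposited scale, where 72.0% of all genes tested fell. After median-ratio scaling 3 were lower and 1, Pmaip1, was higher (backgrounds 43.8% and 44.0%). Bad encodes a sensitizer that binds BCL-XL and BCL2 and is held inactive by growth factor signaling. It was at 11.9, 15.0 and 15.0 FPKM in A and at 1.41, 1.07 and 2.37 in B, on 52 to 111 reads. All 3 libraries of B were far below those of A, with means that differed 8.63-fold. The log2 fold change of -2.54 (SE 0.18, limma adjusted p = 3.57e-09) was the lowest of the 10 genes, 1.44 below the median gene, and it was -1.48 after median-ratio scaling. Only 11.5% of the genes tested had a lower one. Gpr137, which overlaps Bad on the opposite strand in the reference annotation, went from 9.12 to 9.77 FPKM in A to 0.780 to 1.21 in B, and whether reads were counted by strand is not given in the sources used here.

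Bid, which caspase-8 cleaves to connect death receptors with mitochondria, was at 6.80, 8.70 and 6.21 FPKM in A and at 1.54, 1.31 and 1.95 in B. Bcl2l11, which encodes BIM, an activator that binds all pro-survival members, was at 6.65, 7.14 and 6.48 FPKM in A and at 1.67, 1.56 and 1.67 in B. Neither gene had overlapping groups. The log2 fold changes were -1.66 for Bid (SE 0.13, limma adjusted p = 1.07e-08) and -1.56 for Bcl2l11 (SE 0.10, limma adjusted p = 1.14e-09), or 0.56 and 0.46 further down than the median gene. After median-ratio scaling both stayed lower, by -0.64 and -0.54, but with quantile normalization neither passed the test (adjusted p = 0.0568 for Bid and 0.10 for Bcl2l11).

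Bbc3 and Pmaip1, which encode PUMA and NOXA and are both targets of p53, kept closer to their untreated levels. Bbc3 was at 6.97, 6.28 and 7.68 FPKM in A and at 3.47, 2.72 and 3.09 in B. It fell by 0.96 on the log2 scale (SE 0.09, limma adjusted p = 1.87e-07) with no overlap, about as far as the median gene, and after median-ratio scaling its value was 0.14 (adjusted p = 0.178). Pmaip1 was at 5.38, 4.57 and 5.76 FPKM in A and at 5.03, 5.85 and 6.15 in B. These groups overlapped, and the log2 fold change of 0.10 (95% confidence interval -0.13 to 0.33, limma adjusted p = 0.387) did not pass the test. Relative to the median gene Pmaip1 was 1.20 higher, and after median-ratio scaling it rose by 1.22 (adjusted p = 3.08e-07).

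**Figure D2:**
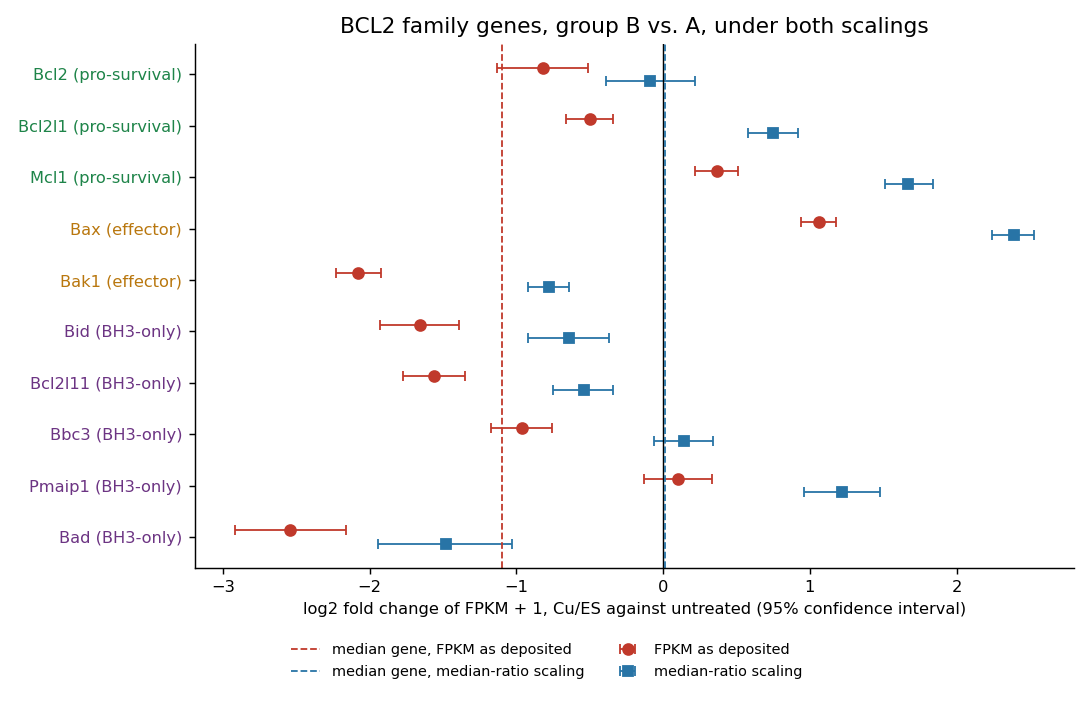
Log2 fold change of FPKM + 1 for Cu/ES against untreated cells (group B vs. A), with 95% confidence intervals from limma, for FPKM as deposited (circles) and after median-ratio scaling (squares); dashed lines mark the median gene on each scale. Bax is highest and Bad lowest on both scales, Mcl1 is above 0 on both, and the signs of Bcl2l1 and Bbc3 turn between the scales.

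By class, the summed BH3-only level went from 40.2 ± 2.13 FPKM in A to 13.6 ± 1.42 in B (SD, n = 3), or from 16.9% to 5.54% ± 0.352 of the 10 genes. The pro-survival sum was 53.8 ± 0.260 FPKM in A and 57.4 ± 3.29 in B, and its share was 22.7% and 23.4% ± 0.731. The effector sum was 143 ± 7.81 FPKM in A and 175 ± 5.76 in B, with shares of 60.4% and 71.1% ± 0.882, and 1 gene, Bax, made up most of the latter. On the annotated exon lengths the shares in A and B were 15.8% and 5.82% for the BH3-only genes, 42.0% and 49.8% for the pro-survival genes and 42.2% and 44.4% for the effectors. Within the classes the genes did not move alike. The log2 fold changes of the pro-survival genes ran from -0.82 to 0.37, those of the effectors from -2.08 to 1.06 and those of the BH3-only genes from -2.54 to 0.10.

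Ratios between a pro-death and a pro-survival gene of the same library do not depend on how libraries are scaled, apart from the pseudocount of 1. 9 pairs were compared, each in 3 comparisons, by exact two-sided permutation tests, in which 3 libraries against 3 cannot give a p under 0.1. For Cu/ES, 2 of the 9 ratios were higher and 7 lower, each with no overlap between the groups (exact p = 0.1 for each, 0.135 after adjustment over the 27 tests). Of the single genes tested, 92.9% also had no overlap between groups A and B. How often ratios of other gene pairs lack overlap was not computed, for this comparison or the others. The ratio of Bax to Bcl2l1 was 4.22 to 4.58 in the libraries of A and 11.9 to 14.7 in those of B. The ratio of Bax to Bcl2 was 30.2 to 44.4 in A and 178 to 300.5 in B. Both Bax ratios thus stood higher in every Cu/ES library, by 1.56 and 1.88 on the log2 scale of FPKM + 1.

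The 7 lower ratios involved Bak1 and the BH3-only genes. Bak1 to Mcl1 was 1.87 to 2.15 in A and 0.306 to 0.360 in B. Which of these binding partners was the more abundant in A rests on the gene lengths, since on the annotated exon lengths the ratio was 0.609 to 0.701 in A and 0.0999 to 0.117 in B. Bcl2l11 to Mcl1, Bid to Mcl1 and Bad to Bcl2l1 differed by -1.93, -2.03 and -2.04 on the log2 scale, and Bak1 to Bcl2l1 by -1.58. The smallest differences were those of Bbc3 to Bcl2l1 (-0.46) and Pmaip1 to Mcl1 (-0.27). The last did not hold without the pseudocount, where the groups overlapped (exact permutation p = 0.200).

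**Figure D3:**
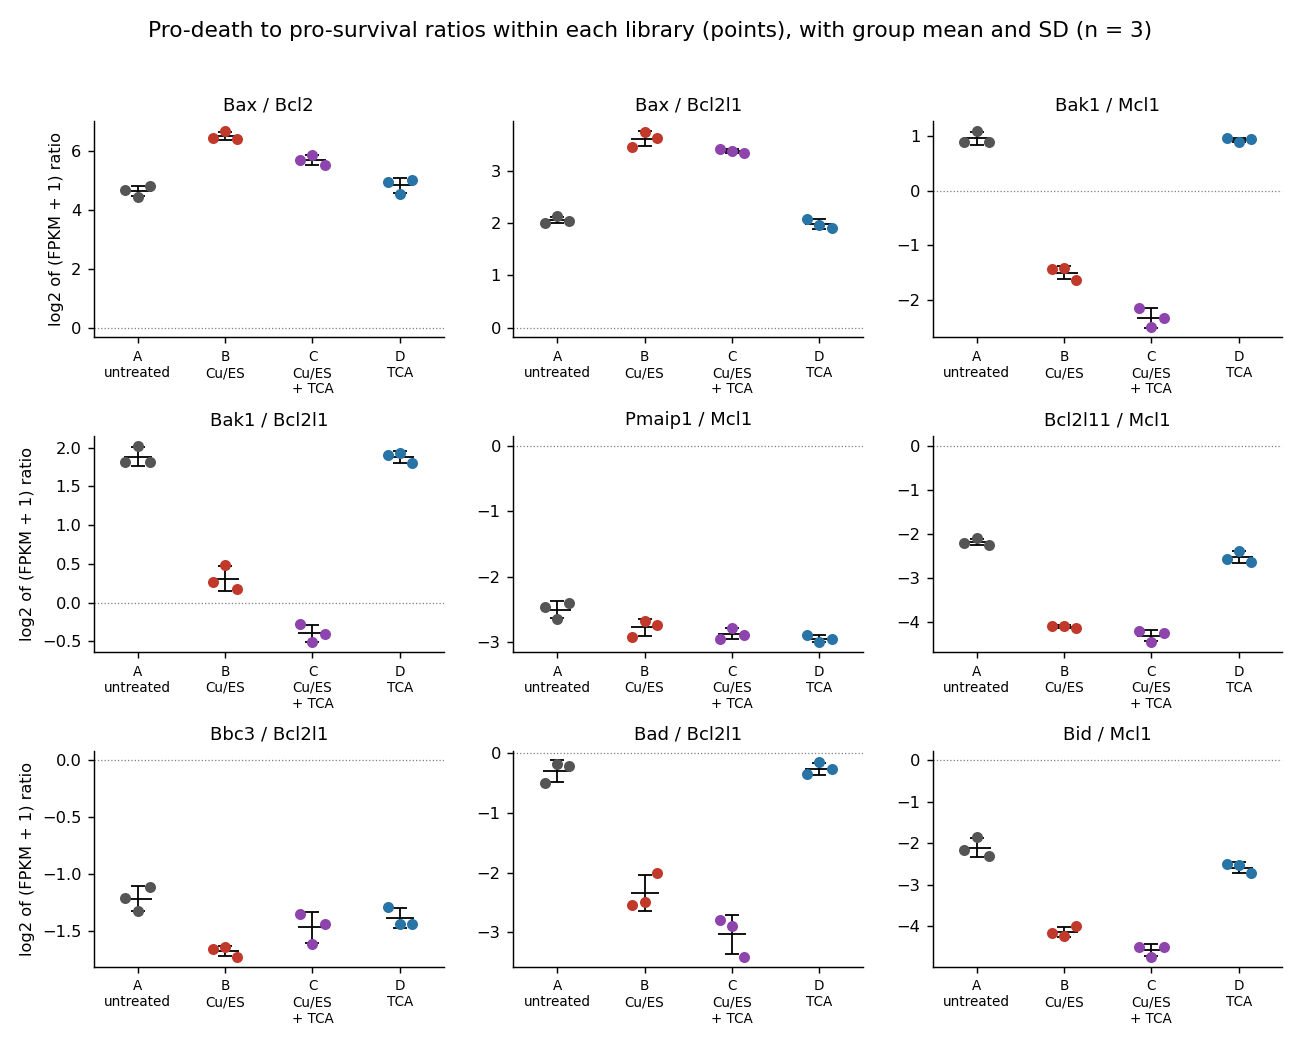
Log2 of the ratio of FPKM + 1 between a pro-death gene and a pro-survival gene in each library (points), with the group mean and SD (n = 3); the dotted line marks equal levels. Both Bax ratios are higher in groups B and C than in A and D, while the ratios of Bak1, Bcl2l11, Bad and Bid to their partners are lower.

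Adding TCA to Cu/ES (C vs. B) changed 6 of the 10 genes at an adjusted p under 0.05, against 44.0% of all genes tested, and none past both thresholds (background 2.29%). 5 rose (background 20.4%) and 1 fell (background 23.6%). At an unadjusted p under 0.05 there were 7, but the share of all genes at that threshold was not computed. A limma-voom fit of the recovered reads gave 1 of the 10 genes past both thresholds, against 780 of the 10615 genes tested. All 3 pro-survival genes rose. Bcl2 was at 2.13, 1.85 and 2.53 FPKM in group C, all above the 0.519 to 0.937 of group B and within the 1.70 to 2.62 of untreated cells. Its log2 fold change of 0.87 (SE 0.15, limma adjusted p = 3.11e-04) was higher than that of 98.1% of the genes tested. Mcl1 reached 54.5, 63.2 and 59.9 FPKM in group C, above every library of B, and rose by 0.40 (SE 0.07, limma adjusted p = 3.37e-04). Bcl2l1 reached 14.3, 15.2 and 15.0 FPKM and rose by 0.28 (SE 0.08, limma adjusted p = 0.00827), which left it below the untreated libraries.

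The effectors again differed from each other. Bak1 fell further, to 11.6, 10.4 and 11.1 FPKM, with no overlap with B and a log2 fold change of -0.43 (SE 0.07, limma adjusted p = 3.07e-04). Bax was at 163, 168 and 163 FPKM, within reach of group B, with a log2 fold change of 0.05 (95% confidence interval -0.08 to 0.17, adjusted p = 0.552). Of the BH3-only genes, Bbc3 rose by 0.49 (SE 0.09, limma adjusted p = 9.08e-04), to 5.0, 4.30 and 4.93 FPKM. Pmaip1 rose by 0.30 (SE 0.11, limma adjusted p = 0.0352), to 6.20, 8.35 and 7.23 FPKM, and its lowest library stood barely above the highest of B. This call held in 8 of 15 alternatives. It was lost with quantile normalization (limma adjusted p = 0.0635), with no filter on low genes (0.0778), in a fit of only the groups compared (0.0890) and without replicate 1 or 2 of B or replicate 2 or 3 of C (up to 0.138), with log2 fold changes from 0.21 to 0.32. Bcl2l11 at 2.0, 1.90 and 2.16 FPKM stood above every library of B but did not pass the test (log2 fold change 0.20, adjusted p = 0.119), except after median-ratio scaling (0.27, adjusted p = 0.0292). Bid and Bad overlapped with B, with log2 fold changes of -0.05 (95% confidence interval -0.32 to 0.23) and -0.40 (95% confidence interval -0.79 to -0.02, adjusted p = 0.0797). Bad was down to 25 to 63 reads per library in C, and without replicate 2 of B its value was -0.56 with an adjusted p of 0.0268.

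The median log2 fold change for C vs. B was 0.24 over the 10 genes and -0.03 over all genes tested. The called genes kept their direction under the 4 scalings, but Bcl2 passed both thresholds after median-ratio scaling (1.08) and on the TPM scale (1.18). Of the 10615 genes tested, 326 and 386 did so on these scales. By class, the pro-survival share of the 10 genes was 23.4% in B and 28.4% ± 1.05 in C, and the effector share was 71.1% and 65.5% ± 1.12. On the annotated exon lengths the pro-survival share was 49.8% and 56.1%, and the effector share 44.4% and 37.6%. Of the 9 ratios, 7 were lower in C than in B with no overlap, 1 was higher (Bbc3 to Bcl2l1, 0.21) and 1 overlapped (Pmaip1 to Mcl1). The lower ratio of Bcl2l11 to Mcl1 (-0.20) did not hold without the pseudocount, where it was 0.0358 to 0.0374 in B and 0.0301 to 0.0367 in C (exact permutation p = 0.500). Bak1 to Mcl1 was 0.164 to 0.213 in C, below the range of B, and Bak1 to Bcl2l1, which lay between 1.14 and 1.45 in B, was 0.685 to 0.811 in C. Bax to Bcl2 fell back to between 64.2 and 90.9, lower in every library than in B and higher than in A.

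TCA without Cu/ES (D vs. A) changed 0 of the 10 genes at an adjusted p under 0.05 in limma, against 22.0% of all genes tested. At an unadjusted p under 0.05 there were 5 (Bcl2l1, Mcl1, Bak1, Bid and Pmaip1), but the share of all genes at that threshold was not computed. A limma-voom fit of the recovered reads called 1 of the 10 (Mcl1, adjusted p = 0.0368), against 2893 of the 10615 genes tested. The largest differences were -0.28 for Bid (95% confidence interval -0.56 to -0.01) and -0.25 for Pmaip1 (95% confidence interval -0.48 to -0.02). Mcl1 was at 38.4, 41.6 and 38.0 FPKM in group D, above the untreated libraries, with a log2 fold change of 0.19 (95% confidence interval 0.05 to 0.34, adjusted p = 0.0563). Bcl2l1 was at 19.3, 19.6 and 20.5 FPKM, also above all of A, with 0.18 (95% confidence interval 0.01 to 0.34, adjusted p = 0.111). The groups did not overlap for 5 of the 10 genes, against 44.2% of all genes tested. Bax at 85.0, 79.6 and 79.5 FPKM and Bak1 at 75.4, 77.5 and 73.8 lay just above the untreated range, with log2 fold changes of 0.10 and 0.17. Of the 9 ratios, 3 were lower in D than in A with no overlap, with or without the pseudocount, and 6 overlapped. The 3 were Bid to Mcl1 (-0.48 on the log2 scale), Pmaip1 to Mcl1 (-0.44) and Bcl2l11 to Mcl1 (-0.35), each with an exact permutation p of 0.1, or 0.135 after adjustment over the 27 tests.

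The effect of TCA with Cu/ES differed from its effect without Cu/ES for 4 of the 10 genes by the interaction term of the same fit (adjusted p under 0.05, background 37.5%). The difference was 0.96 for Bcl2 (SE 0.21, limma adjusted p = 0.00285), 0.49 for Bbc3 (SE 0.13, limma adjusted p = 0.0117), 0.55 for Pmaip1 (SE 0.15, limma adjusted p = 0.0119) and -0.60 for Bak1 (SE 0.10, limma adjusted p = 5.99e-04). For Bcl2 the effects were 0.87 with Cu/ES and -0.09 without, and for Bak1 -0.43 and 0.17. Mcl1 rose with Cu/ES and missed the threshold without it, but the difference of 0.21 between these effects did not pass either (adjusted p = 0.105).

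**Figure D4:**
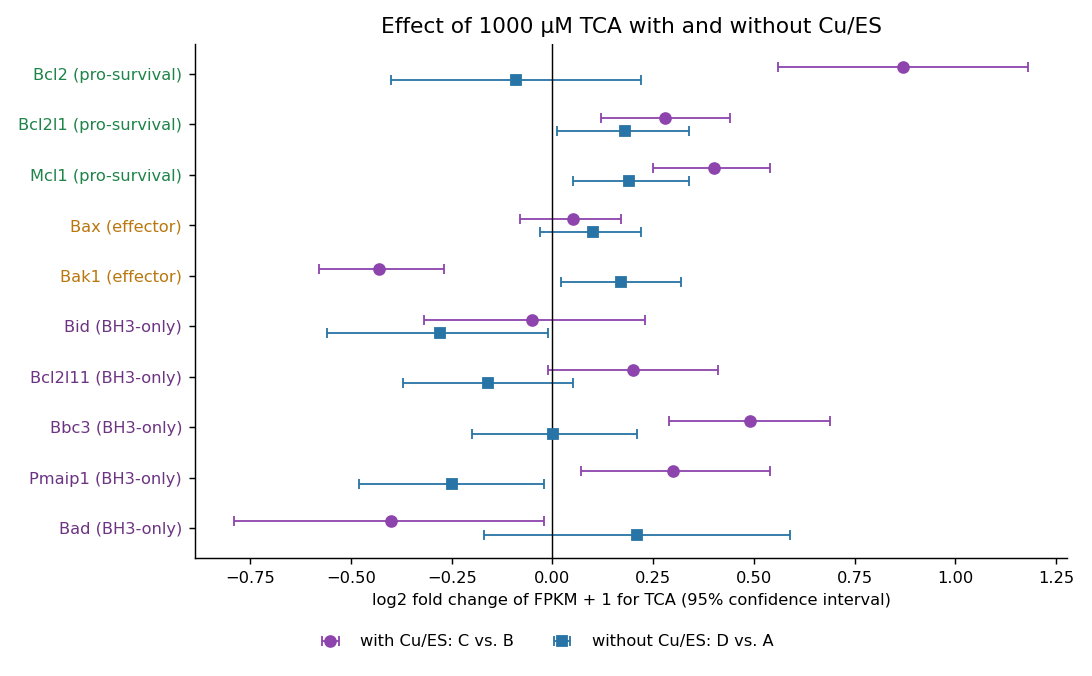
Log2 fold change of FPKM + 1 for 1000 μM TCA with Cu/ES (C vs. B, circles) and without Cu/ES (D vs. A, squares), with 95% confidence intervals from limma. Bcl2, Bbc3 and Pmaip1 lie higher with Cu/ES than without and Bak1 lies lower, while the 2 intervals of Bax overlap.

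The rest of the mitochondrial death pathway was read from lists of 48 other genes, of which 47 were in the table and 40 were tested. For Cu/ES 9 of these rose and 29 fell (backgrounds 20.1% and 72.0%), and past both thresholds 4 rose and 20 fell (backgrounds 10.1% and 53.0%), which is close to the split of all genes tested. Median-ratio scaling gave 20 higher and 17 lower (backgrounds 44.0% and 43.8%), and past both thresholds 11 higher and 9 lower (backgrounds 26.9% and 24.6%). The 6 caspases reported, proteases that start or carry out apoptosis or act in related stress responses, all fell past both thresholds, their median log2 fold change being -2.26 where that of all genes was -1.10. They ranged from Casp6 (22.2 ± 3.71 to 0.231 ± 0.0675 FPKM, log2 fold change -4.22, limma adjusted p = 3.89e-13) to Casp2 (11.0 ± 1.15 to 3.43 ± 0.156 FPKM, -1.43, limma adjusted p = 2.54e-09). After median-ratio scaling the 6 were still lower (background 43.8%), and 4 of them passed both thresholds (background 24.6%). Casp6 was then at -3.43 and Casp2 at -0.29.

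Downstream of the outer membrane, the list of apoptosome and mitochondrial release genes had 3 of 9 genes higher and 6 lower, against 20.1% and 72.0% of all genes tested. Cycs, which encodes cytochrome c, the trigger of the apoptosome, rose from 17.2 ± 0.932 to 60.6 ± 2.08 FPKM (log2 fold change 1.76, limma adjusted p = 5.23e-11). Endog, a mitochondrial nuclease, fell by 2.71 on the log2 scale. After median-ratio scaling 8 of the 9 were higher and 1, Endog, was lower (backgrounds 44.0% and 43.8%). Of the 5 caspase inhibitors 4 fell (background 72.0%), Birc3 furthest (-2.56), and Birc6 was at -0.04 (adjusted p = 0.832). Median-ratio scaling gave 1 of the 5 higher, Birc6 (1.25, limma adjusted p = 1.60e-05), and 3 lower (backgrounds 44.0% and 43.8%). Of the 4 regulators of MCL1 turnover, Fbxw7, part of a ubiquitin ligase for MCL1, rose by 0.93 (limma adjusted p = 8.48e-08) and Btrc fell by 0.86 on the log2 scale, a fall that was not past the test after median-ratio scaling (-0.06, adjusted p = 0.521).

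The other family members tested were lower about as often as all genes were (background 72.0%). Of the pro-survival and effector genes, Bok, a BAX relative, went from 16.1 ± 0.141 to 1.86 ± 0.292 FPKM (-2.59) and Bcl2l2, which encodes BCL-W, from 18.2 ± 1.55 to 3.79 ± 0.150 (-2.0), and both stayed lower after median-ratio scaling. Of 7 other BH3-only and atypical members, 2 rose and 5 fell (backgrounds 20.1% and 72.0%). After median-ratio scaling 3 of them were higher and 4 lower (backgrounds 44.0% and 43.8%). Bnip3, a mitophagy receptor, fell most, from 140.1 ± 22.8 to 6.61 ± 0.551 FPKM (log2 fold change -4.20, limma adjusted p = 2.00e-12), and Bcl2l15 rose most, from 0.182 ± 0.0753 to 3.98 ± 0.196 (2.08, limma adjusted p = 1.24e-09). Of 7 transcription factors that act on BH3-only genes, 3 rose and 4 fell (backgrounds 20.1% and 72.0%). After median-ratio scaling 5 of these factors were higher and 1 was lower (backgrounds 44.0% and 43.8%). Atf3, a stress-induced factor, rose from 8.06 ± 1.07 to 460.1 ± 27.9 FPKM (5.67, limma adjusted p = 8.76e-15), and Foxo3, an activator of Bcl2l11 and Bbc3, fell from 9.97 ± 2.20 to 2.16 ± 0.188 (-1.78, limma adjusted p = 1.51e-08). Trp53, which encodes p53 and was singled out after its values were seen because Bax, Bbc3 and Pmaip1 are its targets, rose from 119 ± 11.8 to 219.7 ± 6.96 FPKM (0.89, limma adjusted p = 1.60e-08). It was lower in C than in B (-0.41, limma adjusted p = 3.90e-04), where Bbc3 and Pmaip1 were higher and Bax did not pass. In D it was higher than in A (0.39, limma adjusted p = 0.00200), where none of these targets passed the test. A link between Trp53 and these genes was not tested.

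**Figure D5:**
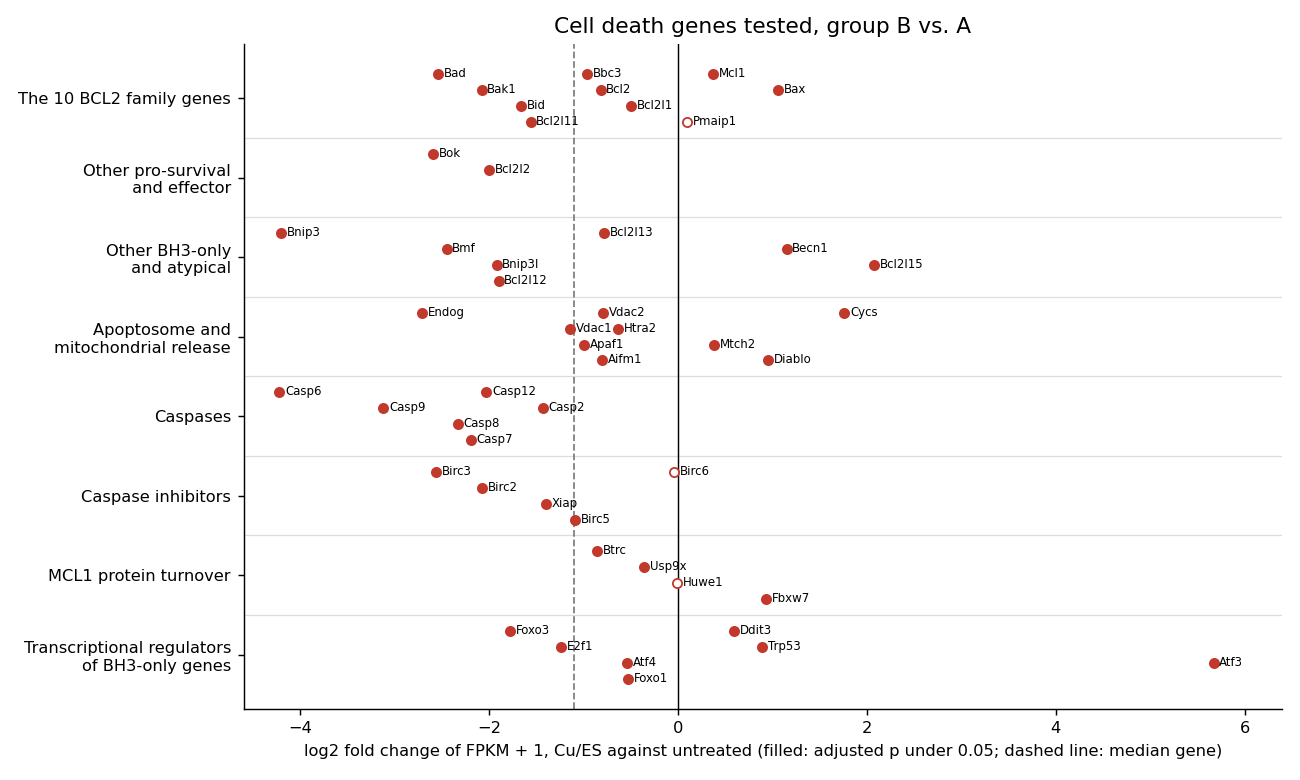
Log2 fold change of FPKM + 1 for Cu/ES against untreated cells (group B vs. A) for the 10 family genes and 40 other cell death genes by list, each point 1 gene (filled: adjusted p under 0.05), with a dashed line at the median gene. The 6 caspases lie at -1.43 or below as deposited, while Cycs, Bcl2l15 and Atf3 lie well above 0.

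No gene of these lists passed both thresholds for TCA, with or without Cu/ES (backgrounds 2.29% and 0.217%). At the adjusted p alone, 11 rose and 13 fell in C vs. B (backgrounds 20.4% and 23.6%), and 6 rose and 9 fell in D vs. A (backgrounds 10.5% and 11.5%). The interaction passed both thresholds for Bnip3 (1.31), Foxo3 (1.03) and Cycs (-1.31), against 3.49% of all genes tested. Cycs was lower with TCA in Cu/ES cells, at 32.5 ± 3.68 FPKM (log2 fold change -0.88, limma adjusted p = 4.15e-06), and higher with TCA in cells without Cu/ES, at 23.5 ± 1.79 FPKM (0.43, limma adjusted p = 0.00328).

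The genes whose pattern over the 12 libraries lay nearest to that of Bax, by Euclidean distance of log2(FPKM + 1) centred on each gene's mean, were Pcna (0.21), Zfand3 (0.22) and Safb (0.23). Pcna, the sliding clamp of DNA replication, was at 119 FPKM in A, 249.8 in B, 260.1 in C and 129 in D. The nearest to Bad were Ublcp1 (0.62), Fscn1 (0.66) and Tex261 (0.67). No other member was as near, the closest to Bax being Mcl1 (1.09) and to Bad being Bak1 (1.15).

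Promoter sequence is shown for both genes that rose with Cu/ES, Bax and Mcl1, and for Bad, which fell most. The windows are the 250 bases before the annotated start, 5′ to 3′ on the gene's strand, from RefSeq on GRCm38.p6, which is not the build the authors used. They lie at chr7:45466899-45467148 (minus strand) for Bax, chr3:95658471-95658720 (plus strand) for Mcl1 and chr19:6941611-6941860 (plus strand) for the first of 2 listed starts of Bad, each just upstream of the gene. Capitals mark the GC box GGGCGG or its reverse complement and, in Bad, an inverted pair of heat shock units (GAANNTTC, N being any base) that runs into the last GC box.
Bax: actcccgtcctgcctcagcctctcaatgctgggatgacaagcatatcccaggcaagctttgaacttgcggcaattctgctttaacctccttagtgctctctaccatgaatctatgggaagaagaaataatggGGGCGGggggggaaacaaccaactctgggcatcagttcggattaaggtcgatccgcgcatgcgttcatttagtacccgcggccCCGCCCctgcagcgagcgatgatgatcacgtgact
Mcl1: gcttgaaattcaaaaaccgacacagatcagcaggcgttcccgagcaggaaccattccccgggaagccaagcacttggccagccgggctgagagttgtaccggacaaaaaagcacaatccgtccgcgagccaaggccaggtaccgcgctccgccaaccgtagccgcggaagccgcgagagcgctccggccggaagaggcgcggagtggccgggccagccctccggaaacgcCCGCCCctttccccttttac
Bad: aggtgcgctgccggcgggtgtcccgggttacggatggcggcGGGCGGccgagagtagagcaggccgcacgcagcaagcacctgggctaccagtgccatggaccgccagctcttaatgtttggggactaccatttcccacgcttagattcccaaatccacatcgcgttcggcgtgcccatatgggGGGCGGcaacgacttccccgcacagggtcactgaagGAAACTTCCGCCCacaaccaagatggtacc
The table held 15 windows of 9 of the 10 genes. Both strands were searched for the GC box (GGGCGG), the CCAAT box (CCAAT), the metal response element (TGCACNC, and also in the form TGCGCNC), the antioxidant response element (TGACNNNGC), the cyclic AMP response element (TGACGTCA), an inverted pair of heat shock units (GAANNTTC, and also in the form TTCNNGAA) and the composite site of ATF4 and CHOP (TGATGCAAT), where N is any base. GGGCGG stood in 10 of the 15 windows, against 32.7% of the 32851 windows in the table. The metal response element stood in 7 of the 15, against 21.4% of all, in windows of Bcl2l1, Bid, Bcl2l11, Bbc3 and Bad but not of Bax, Mcl1, Bak1 or Bcl2. CCAAT stood in 4 of 15 (33.8% of all), and the antioxidant response element (10.2% of all) and the pair of heat shock units (12.8% of all) in 1 of 15 each, a window of Bcl2l1 and the printed window of Bad. The cyclic AMP element and the composite site of ATF4 and CHOP were in none of the 15 (1.55% and 0.167% of all). The windows of a gene with several starts can share bases, and a match describes letters in these windows only.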

How the data were processed

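The authors deposited FPKM values for 12 libraries, 1 column each and all used. The submitters' processing notes name fastp, HISAT2, HTSeq and GRCm39; versions, annotation and strand setting are not given in the sources used here.

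From these values log2(FPKM + 1) was computed for 10615 genes (mean FPKM over the libraries not under 1), and limma 3.58.1 (R 4.3.3, empirical Bayes with trend) was fitted to all 12 libraries as 4 group means, with 8 residual degrees of freedom. P-values were two-sided and Benjamini-Hochberg adjusted over all genes tested. Calls were made at an adjusted p under 0.05, and past both thresholds also at an absolute log2 fold change above 1, the cut-offs of the study. The values are not counts, so no count model was used as the main test. A fold change of FPKM + 1 understates the change of low genes.

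Whole reads were recovered from the FPKM spacing for 22212 of 22212 genes above 0 in at least 2 libraries, within 0.02 reads, and tested with limma-voom as an alternative. Counts cover counting error only. Only the limma and limma-voom fits, for B vs. A and D vs. A, were tested on simulated data. Other alternatives were scalings, pseudocount, filters, a replicate block, a fit of the compared groups alone, leaving out single libraries and, added after the data were seen, the exon lengths of GENCODE M21.

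Deviations from the group means of same-numbered libraries correlated weakly for B vs. A in 3 of 3 pairs (r from 0.142 to 0.174). In that comparison 6 of 6 libraries correlated best with their own number. For C vs. B r ran from 0.005 to 0.277, and for D vs. A from 0.087 to 0.579. The labels state no pairing, and neither the main fit nor the exact tests used one. Only the replicate block treated equal numbers as pairs. The replicate block changed no call among the 10 genes.

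The 10 genes and all lists were chosen with earlier results of these data known. From each list of other genes the highest and the lowest for B vs. A were named, and any past both thresholds in the other comparisons. Likeness was read for the highest and lowest of the 10 genes. 1 gene of the lists is not reported here. Ttr, Serpina1a, Clec4f and Bcl2a1a were not analysed here. Loci came from GENCODE M21 and promoters from RefSeq (GRCm38). Bax, Bak1, Bid, Bcl2 and Bad share exon bases with another annotated gene and are uncertain to that extent. Python 3.11.15, pandas 2.3.3, numpy 2.4.6 and matplotlib 3.10.9 were used for tables and plots.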

Additional observations from a re-analysis of the deposited data

Results flagged for a closer look

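The effect of TCA with Cu/ES (C vs. B) differed from its effect without Cu/ES (D vs. A) for 4 of the 10 genes, by the interaction term of the limma fit. The difference on the log2(FPKM + 1) scale was 0.96 for Bcl2, -0.60 for Bak1, 0.49 for Bbc3 and 0.55 for Pmaip1. All 4 kept their direction and an adjusted p under 0.05 in every alternative fitted for them. Their largest adjusted p-values were 0.0181 for Bcl2, 0.00588 for Bak1, 0.0358 for Bbc3 and 0.0410 for Pmaip1. Among all genes tested 37.5% had an interaction at this threshold.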

How the results depend on the processing

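For Cu/ES (B vs. A) the scaling decided the direction of Bcl2l1 and Bbc3, at 0.75 and 0.14 with median-ratio scaling and 0.46 and 0.42 with quantile normalization, and of Bcl2, at 0.47 with quantile normalization. Pmaip1 passed the test only under those 2 scalings. Members past both thresholds numbered 3 with quantile normalization, where 4551 of 10615 genes passed. They also numbered 3 with a mean FPKM of at least 5. That filter left 7 members and gave 4089 genes beyond both thresholds and 6317 at the adjusted p. For C vs. B 1 member, Bcl2, passed both thresholds with median-ratio scaling, TPM, a pseudocount of 0.1 and limma-voom. Of the 10615 genes, 326 passed both with median-ratio scaling, 386 with TPM and 154 with quantile normalization. With the pseudocount of 0.1 it was 703 genes, and with limma-voom 780. For D vs. A members past the adjusted p numbered 1 with quantile normalization, 2 with only the groups compared and 1 with limma-voom. All genes past it numbered 2621, 2760 and 2893 of 10615 under these settings, in that order. With a library left out 0 to 1 member passed (Bak1 without replicate 2 of A, Bcl2l11 without replicate 2 of D). Genes past both thresholds for D vs. A numbered 59 with TPM, 95 with the pseudocount of 0.1, 14 with the stricter filter and 104 with limma-voom, and genes past the adjusted p numbered 1427 with the pseudocount, 1513 with the stricter filter and 1420 to 2031 with a library left out. For the interaction 1 member, Bcl2, passed both thresholds with median-ratio scaling, TPM, the pseudocount of 0.1 and limma-voom, and 0 to 1 did with a library left out. Of the 10615 genes, 465 passed both with median-ratio scaling, 624 with TPM, 878 with the pseudocount and 874 with limma-voom. With a library left out it was 340 to 521 genes. The cause of these differences was not tested. With the replicate block 2609 genes passed the adjusted p for D vs. A, against 9825 for B vs. A and 4897 for C vs. B, and no call of the 10 genes changed. Same-numbered libraries correlated above 0.1 in 2 of 3 pairs in each of C vs. B and D vs. A, where 4 of 6 and 3 of 6 libraries correlated best with their own number. Depth limits Bad most, at 25 to 63 reads in group C.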

Other observations

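Several relatives of the family stayed under the filter and were not tested. Bcl2a1b, Bcl2a1d and Bcl2l10 had group means of at most 0.0540 FPKM, and Bcl2l14 of at most 0.204. Bik had a mean of 0.566 ± 0.0727 FPKM in A and 1.11 ± 0.270 in B, and Hrk 0.0255 ± 0.0192 in A and 0.241 ± 0.0513 in B (SD, n = 3). Trp73 was listed at 0 in groups A, C and D.

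None of the 10 genes passed the test for TCA without Cu/ES in the main limma fit (background 22.0%). Of the 40 other genes tested, 6 rose and 9 fell in the same fit (backgrounds 10.5% and 11.5%). The genes named here are only part of these. Atf4, a factor of the integrated stress response, rose by 0.54 (adjusted p = 2.02e-04) and Atf3 by 0.66 (adjusted p = 4.32e-04). Casp6 fell by 0.73 on the log2 scale (adjusted p = 0.00107), Bnip3 by 0.76 (adjusted p = 0.00292) and Endog by 0.73 (adjusted p = 0.00340). Atf4, Endog and Casp6 were named here after their values were seen for D vs. A.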
